A study of Mus musculus with 24 samples.

Results

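The Trem2 signalling genes described here are 6 genes of one receptor pathway, Trem2, Tyrobp, Syk, Plcg2, Inpp5d and Cd33, chosen by name from the 47729 genes in the deposited tables. All 6 were found there, and all 6 were among the 12977 genes that passed the filter on low counts. They were measured by RNA sequencing of microglia, the resident macrophages of nervous tissue, sorted from single mouse retinas as CD11b-positive, Fcrls-positive, Ly6c-negative cells, with 100 to 600 cells collected per retina. The 24 libraries came from 15 mice in 3 groups of 5. The first group was DBA/2J at 12 months, genotype Gpnmb-/- Tyrp1b-/-, with 10 retinas; this inbred strain develops an inherited glaucoma with age. The second was DBA/2J of the same genotype at 6 months, labelled as early disease, with 1 retina per animal. The third was the control strain DBA/2J Gpnmb+ at 12 months, genotype Gpnmb+/+ Tyrp1b-/-, with 9 retinas. The Tyrp1b allele was thus shared by all 3 groups, and no group was treated. The 12-month DBA/2J retinas carry a grade in the labels: 3, from 2 animals, were mild, 4 from 3 animals were moderate and 3 from 2 animals were severe. The 6-month animals differ from the Gpnmb+ animals in both age and genotype, so these cannot be told apart in that comparison.

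Trem2 is a surface receptor of myeloid cells that binds lipids, lipoproteins and cell debris. It has no signalling tail of its own and works through the adapter Tyrobp (also called DAP12), whose tyrosine motif recruits the kinase Syk. Syk in turn activates the phospholipase Plcg2, which cleaves a membrane phosphoinositide into second messengers. Inpp5d (SHIP1) removes a phosphate from a phosphoinositide made by PI 3-kinase and dampens the pathway, and Cd33 is a sialic acid-binding receptor of the Siglec family. In humans, CD33 carries inhibitory motifs; mouse Cd33 differs from it in its cytoplasmic tail, so its role as a brake is known mainly from the human gene. In mouse brain, Trem2 is known for its part in the switch of microglia from the resting to a disease-associated state.

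Trem2 lies on chromosome 17 at 48346401 to 48354147 on the plus strand, with up to 5 exons per annotated transcript (GRCm38, GENCODE). Tyrobp is at 30413760 to 30417585 on the plus strand of chromosome 7, and its nearest neighbour Hcst, a related adapter on the opposite strand, lies 126 bases away. Syk is at 52583173 to 52648792 on chromosome 13, Plcg2 at 117498291 to 117635142 on chromosome 8 and Inpp5d at 87620312 to 87720507 on chromosome 1, all on the plus strand. Cd33 is on the minus strand of chromosome 7 at 43524216 to 43544428. Of the 6 genes, Plcg2 alone overlapped another annotated gene, the miRNA gene Gm27361 on the opposite strand.

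The start regions of 3 of the genes are shown, for the receptor and for the pair of enzymes that act on phosphoinositides, as the stretch of 250 bases before to 50 after the start site in RefSeq (GRCm38.p6). Capitals mark matches to either of 2 motifs that were searched on both strands: GAGGAAGT, a PU.1-type sequence, and CACGTG, the palindromic E-box. PU.1 is a transcription factor of the myeloid lineage, and E-boxes are bound by basic helix-loop-helix factors. The regions are Trem2 at chr17:48346151-48346450, Plcg2 at chr8:117498025-117498324 and Inpp5d at chr1:87620062-87620361, all on the plus strand.
Trem2: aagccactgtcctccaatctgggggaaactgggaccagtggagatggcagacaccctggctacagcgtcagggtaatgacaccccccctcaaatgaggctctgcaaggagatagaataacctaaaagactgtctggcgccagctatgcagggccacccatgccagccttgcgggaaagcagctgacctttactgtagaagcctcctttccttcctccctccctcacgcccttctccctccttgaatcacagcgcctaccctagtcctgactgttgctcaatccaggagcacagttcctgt
Plcg2: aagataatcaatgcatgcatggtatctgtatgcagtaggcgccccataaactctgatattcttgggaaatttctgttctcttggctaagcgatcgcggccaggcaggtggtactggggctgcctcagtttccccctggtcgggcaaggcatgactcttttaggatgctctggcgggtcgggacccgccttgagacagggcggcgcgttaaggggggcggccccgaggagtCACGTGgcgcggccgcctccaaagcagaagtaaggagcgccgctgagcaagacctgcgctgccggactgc
Inpp5d: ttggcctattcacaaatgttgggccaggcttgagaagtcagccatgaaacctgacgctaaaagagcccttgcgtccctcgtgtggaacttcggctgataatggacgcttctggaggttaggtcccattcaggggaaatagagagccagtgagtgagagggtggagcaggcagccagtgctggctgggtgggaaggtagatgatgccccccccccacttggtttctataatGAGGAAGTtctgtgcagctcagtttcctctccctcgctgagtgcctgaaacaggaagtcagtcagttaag
Inpp5d held the PU.1-type sequence, starting 20 bases before the start site, and Plcg2 held the E-box, also starting 20 bases before it. The Trem2, Syk and Cd33 regions held neither set of letters. No start region was available for Tyrobp, so it was not searched. Over 32851 start regions of the same length, 3.2% held the PU.1-type sequence and 7.15% the E-box. These matches describe letters in a window and were not tested for binding.

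Depth and cell identity were checked before the genes were compared. Libraries of 12-month DBA/2J retinas held 1706745 to 20081047 counts each, those from 6 months 12043862 to 17992997, and Gpnmb+ libraries 977873 to 14845259. The 5 retinas with fewer than 10000 detected genes all belonged to Gpnmb+ animals 1, 2 and 3. The 13 microglia markers summed to 28236 to 39290 CPM (counts scaled to a library total of 1000000) per animal in 12-month DBA/2J, 34501 to 39742 at 6 months and 17155 to 36286 in Gpnmb+. Among them P2ry12 and Tmem119 were counted in every animal, whereas Fcrls, the gene of the sorting antigen, had a median of only 21.2 CPM in 12-month DBA/2J, 29.6 CPM in 6-month DBA/2J and 13.1 CPM in Gpnmb+ and was at 0 in 1 Gpnmb+ animal. The 8 neutrophil markers and the 7 T and NK cell markers summed to at most 8.45 and 0.759 CPM in any animal. The 7 monocyte markers summed to 5.82 to 47.7 CPM in 12-month DBA/2J, 6.89 to 35.9 at 6 months and 1.22 to 21.8 in Gpnmb+, with Ly6c2 at 0 in all DBA/2J animals and in 4 of 5 Gpnmb+ animals. The 5 B cell markers summed to 302.5 to 483.1 CPM in 12-month DBA/2J, 357.3 to 547.9 at 6 months and 319.5 to 507.9 in Gpnmb+, of which Ighm made up most, while Ms4a1 did not exceed 3 counts in an animal. The 14 rod photoreceptor markers summed to 466.9 to 2613 CPM in 12-month DBA/2J, 216.7 to 2499 at 6 months and 338.2 to 10244 in Gpnmb+. The 8 Muller glia and astrocyte markers summed to 262 to 393.4 CPM in 12-month DBA/2J, 297 to 451.8 at 6 months and 152.3 to 539.4 in Gpnmb+. The part of these levels in the differences below was not tested. Gpnmb itself had 0 counts in all 10 DBA/2J animals and was counted in 1 of 5 Gpnmb+ animals, so it does not check the genotype labels.

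The 6 genes spanned a wide range of levels. On the authors' TPM scale, which divides by transcript length and so allows genes to be compared, Tyrobp had a median of 2486 TPM over the 24 retinas and Trem2 2026 TPM, which placed their medians at ranks 28 and 35 among the 47729 genes. Inpp5d followed at 365.8 TPM, rank 277. Cd33 had a median of 149.2 TPM, Plcg2 47.1 TPM and Syk 31.6 TPM. The receptor and its adapter together thus carried most of the TPM of the 6 genes, with medians of 36.9% for Trem2 and 51.1% for Tyrobp. The kinase and the phospholipase had medians of 0.625% and 1.03% of that sum. The ranges of Trem2 (1123 to 2767 TPM) and Tyrobp (1134 to 6636 TPM) overlapped widely, as did those of Plcg2 (8.27 to 260.9 TPM) and Syk (0 to 79.1 TPM). The lowest Trem2 value was above the highest Inpp5d value, 824.1 TPM, so these neighbours in the order did not overlap, whereas the ranges of Inpp5d, Cd33 (0 to 324 TPM) and Plcg2 did.

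**Figure D1:**
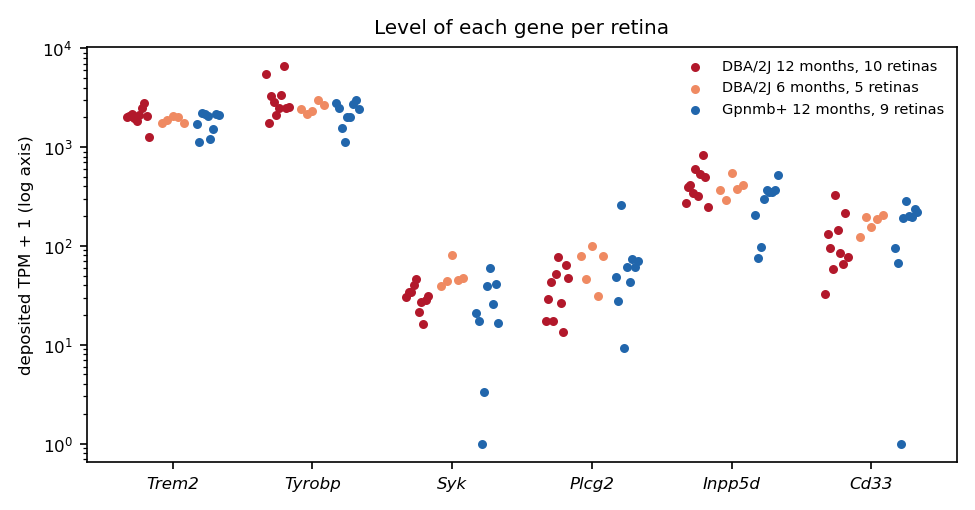
Deposited TPM plus 1 on a log axis for the 6 genes, 1 point per retina, in 12-month DBA/2J, 6-month DBA/2J and 12-month Gpnmb+ retinas. Trem2 and Tyrobp lay above 1000 TPM in every retina, and Syk and Cd33 were at 0 in 1 Gpnmb+ retina.

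Syk and Cd33 each had 0 counts in 1 retina, the right eye of Gpnmb+ animal 2, which had the smallest library. A count of 0 there allows up to 3.07 CPM (3 counts of the total), which covers counting error only. In the same retina Plcg2 had 804.8 CPM and in the left eye of that animal 23.5 CPM, a ratio of 34.2. CPM per retina are counts over the library total. Among pairs of eyes that both had counts this was the widest gap for any of the 6 genes, and Cd33 in the same animal had 0 in the right eye and 258.7 CPM in the left. Over the 9 animals with both eyes, the higher eye exceeded the lower by a median of 1.20-fold for Trem2, 1.16-fold for Tyrobp, 1.18-fold for Inpp5d and 1.44-fold for Plcg2. For Syk and Cd33 the median ratios were 1.54 and 1.54, over the 8 animals without a 0. The highest ratio was 1.58 for Trem2, 4.13 for Tyrobp and 7.63 for Inpp5d, the last in Gpnmb+ animal 2.

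The first comparison set microglia of 12-month DBA/2J retinas against those of age-matched Gpnmb+ retinas, with counts summed over the eyes of an animal. Trem2, Tyrobp and Syk had higher means in 12-month DBA/2J, and Cd33, Plcg2 and Inpp5d had lower ones. Syk and Inpp5d differed by less than their errors. None of the 6 passed when p-values were adjusted for every gene tested. The quasi-likelihood F test of edgeR called 0 of 12977 genes (0%) at an adjusted p under 0.05, and 675, which is 5.2%, had an unadjusted p below that level. Of the 6 genes, Trem2 and Cd33 were among those 675, Trem2 with the 2.75% that were higher and Cd33 with the 2.45% that were lower. DESeq2 made 108 calls in this comparison, none of them among the 6 genes.

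Trem2, the receptor, had 1692, 1624, 1455, 2203 and 1070 CPM in 12-month DBA/2J animals 1 to 5, against 1298, 1355, 1091, 999.6 and 1450 CPM in Gpnmb+ animals 1 to 5 (scaled by edgeR's TMM factors). Fewer cells of a type and less RNA per cell cannot be told apart in such values. In 4 of 5 DBA/2J animals the value lay above every Gpnmb+ animal, while DBA/2J animal 5 lay within the Gpnmb+ range. The means were 1609 ± 410.5 CPM in 12-month DBA/2J and 1239 ± 187.6 CPM in Gpnmb+ (SD, n = 5 each), a log2 fold change of 0.38 ± 0.18 (SE; edgeR adjusted p = 0.954). The alternative fits gave 0.18 to 0.55, the lowest with each retina entered and the animal as a random effect. The difference was smaller on the TPM scale. Animal means there were 2072 ± 356.3 TPM in 12-month DBA/2J and 1780 ± 348.4 TPM in Gpnmb+ (SD, n = 5 each), and the difference in log2(TPM + 1) was 0.22 ± 0.16 (SE; limma adjusted p = 0.739).

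Tyrobp, the adapter, had 1042, 911.2, 591.6, 1402 and 588 CPM in 12-month DBA/2J animals and 946.7, 271.1, 495.9, 648.9 and 648.2 CPM in Gpnmb+ animals. The groups overlapped, with DBA/2J animals 1 and 4 above every Gpnmb+ animal and animals 3 and 5 below the Gpnmb+ median. Its fitted log2 difference was 0.59 ± 0.29 (SE; edgeR adjusted p = 0.984). Across the 15 animals, Trem2 and Tyrobp had a Pearson r of 0.62 and a Spearman rho of 0.58 in log2 CPM, given as a description, since these values share a library and a scaling.

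Syk, the kinase, had 124.3, 117.1, 59.6, 97.0 and 77.2 CPM in 12-month DBA/2J animals and 56.7, 5.81, 132.8, 77.4 and 72.6 CPM in Gpnmb+ animals. The low Gpnmb+ value was animal 2, whose retinas both had fewer than 10000 genes. DBA/2J differed from Gpnmb+ by a log2 fold change of 0.46 ± 0.51 (SE; edgeR adjusted p = 0.999), 0.16 without that animal and -0.15 without the 5 retinas of that kind. No difference in Syk was detectable beyond the spread between animals.

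Plcg2, the phospholipase, had 86.6, 119.4, 211.5, 86.7 and 150.9 CPM in 12-month DBA/2J animals and 156.7, 175.2, 148.4, 206.5 and 189.9 CPM in Gpnmb+ animals. DBA/2J animals 1, 2 and 4 were below every Gpnmb+ animal and animal 3 was above them all. Gpnmb+ animal 2 drew most of its Plcg2 counts from its right eye, the smallest library, with 787 against 88 in the left. The log2 fold change was -0.42 ± 0.32 (SE; edgeR adjusted p = 0.999). It was 0.07 when each animal was represented by the retina with the larger total, and -0.12 without retinas below 20% of the median total.

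Inpp5d, the phosphatase, had 392.8, 601.6, 467.5, 451.4 and 528.7 CPM in 12-month DBA/2J animals and 352.1, 573.5, 485.1, 578 and 541 CPM in Gpnmb+ animals. The groups overlapped almost fully, and the log2 fold change was -0.05 ± 0.19 (SE; edgeR adjusted p = 0.999). On the TPM scale the sign was the other way, with 445.1 ± 140.3 TPM in 12-month DBA/2J and 297.3 ± 124.9 TPM in Gpnmb+ (SD, n = 5 each) and a difference in log2(TPM + 1) of 0.65 ± 0.31 (SE; limma adjusted p = 0.648). Retinas with like CPM of the library total could differ widely in TPM. The left eye of DBA/2J animal 4 had 540.2 CPM and 824.1 TPM, and that of animal 5 had 520.7 CPM and 244.5 TPM. The part of the estimated transcript lengths in the change of sign was not tested.

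Cd33, the Siglec, had 180.9, 177.2, 288.1, 162.3 and 197.1 CPM in 12-month DBA/2J animals and 177.3, 193.6, 405.6, 336.2 and 380.5 CPM in Gpnmb+ animals. All 5 DBA/2J animals were below the Gpnmb+ median, and Gpnmb+ animals 1 and 2 lay within the DBA/2J range. The means were 201.1 ± 50.2 CPM in 12-month DBA/2J and 298.6 ± 106.4 CPM in Gpnmb+ (SD, n = 5 each), a log2 fold change of -0.57 ± 0.27 (SE; edgeR adjusted p = 0.951). Gpnmb+ animals 1 and 2 were also the animals with fewer than 10000 genes in both retinas. The log2 fold change without such retinas was -0.79 (edgeR adjusted p = 0.661).

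Trem2 and Cd33 differed in opposite directions, and their ratio is given as a description. The CPM of Trem2 over that of Cd33 was 5.05 to 13.6 in 12-month DBA/2J animals (median 9.17), 3.61 to 5.75 in 6-month animals (median 4.85) and 2.69 to 7.32 in Gpnmb+ animals (median 3.81). The ranges still overlapped. The pair was chosen after the values were seen, and the ratio was not tested.

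**Figure D2:**
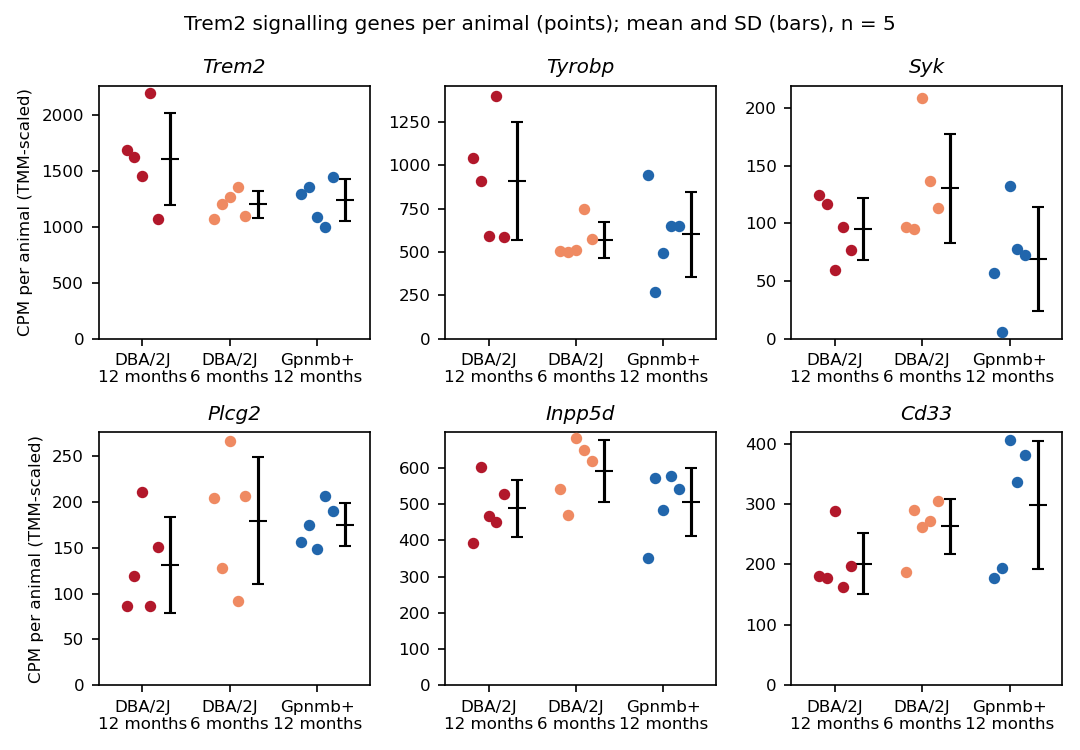
CPM per animal, with a panel for each gene; points are animals 1 to 5 from left to right in each group and bars are the mean and SD (n = 5). Trem2 was above all Gpnmb+ animals in 4 of 5 12-month DBA/2J animals, and the groups overlapped for every gene.

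The second comparison asked how the microglia of DBA/2J retinas differ between 12 and 6 months. Trem2 and Tyrobp again had higher means at 12 months, and the other 4 genes had lower ones. No gene passed the adjustment (0 of 12977, 0% called, by edgeR), and 474 genes, or 3.65%, had an unadjusted p under 0.05. Trem2 and Tyrobp were among the 2.1% that were higher at that level. DESeq2 made 62 calls, none of them among the 6 genes. The comparison shares the 12-month DBA/2J animals with the first, so the values are given side by side and not as a second line of evidence.

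Trem2 at 6 months had 1075, 1204, 1271, 1361 and 1100 CPM, so that 12-month animals 1 to 4 were above every 6-month animal and 12-month animal 5 was below them all. The log2 fold change of 12-month against 6-month DBA/2J was 0.42 ± 0.18 (SE; edgeR adjusted p = 1). Tyrobp at 6 months had 506.8, 498.2, 512.3, 747.1 and 576.1 CPM, and 3 of the 12-month animals were above that range. Its log2 fold change was 0.67 ± 0.29 (SE; edgeR adjusted p = 1). Spread between animals was wider at 12 months than at 6 months for both genes, with an SD of 410.5 CPM at 12 months against 118.9 CPM at 6 months for Trem2 and of 340.9 CPM at 12 months against 104.7 CPM at 6 months for Tyrobp, a difference in spread that was not tested. On the TPM scale the differences were 0.12 ± 0.16 for Trem2 and 0.34 ± 0.22 for Tyrobp in log2(TPM + 1) (SE; limma adjusted p = 0.961 and 0.897).

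Among the enzymes and Cd33, Inpp5d had 542.4, 469, 681.7, 648.9 and 620.3 CPM at 6 months, and no 12-month animal reached the 6-month median of 620.3 CPM. Its log2 fold change of 12-month against 6-month DBA/2J was -0.28 ± 0.19, that of Plcg2 -0.45 ± 0.32, that of Syk -0.46 ± 0.51 and that of Cd33 -0.39 ± 0.27 (SE; edgeR adjusted p = 1 for each). Cd33 at 6 months had 187, 289.7, 262, 271 and 304.7 CPM, and 3 of the 12-month animals were below that range. Syk at 6 months had 97.0, 94.8, 209.1, 136.9 and 113.6 CPM, and Plcg2 had 204.3, 128, 266.6, 92.2 and 207 CPM.

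In the third comparison, 6-month DBA/2J against 12-month Gpnmb+, the receptor and its adapter hardly differed. The log2 fold change was -0.04 ± 0.18 for Trem2 and -0.08 ± 0.29 for Tyrobp (SE). Syk had the largest difference of the 6, 0.91 ± 0.51, with every 6-month animal above the Gpnmb+ median. Without Gpnmb+ animal 2, with its 5.81 CPM, it was 0.62, and without the retinas under 10000 genes it was 0.29. On the log2(TPM + 1) scale it was 1.51 ± 0.65 (SE; limma adjusted p = 0.516). Plcg2 differed by 0.03 ± 0.32, Inpp5d by 0.23 ± 0.19 and Cd33 by -0.18 ± 0.27. The adjusted p was 1.00 for all 6 genes by edgeR. None had an unadjusted p under 0.05, where 3.77% of the 12977 genes did, and 0 genes (0% called) passed the adjustment. DESeq2 made 57 calls, none of them among the 6 genes.

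**Figure D3:**
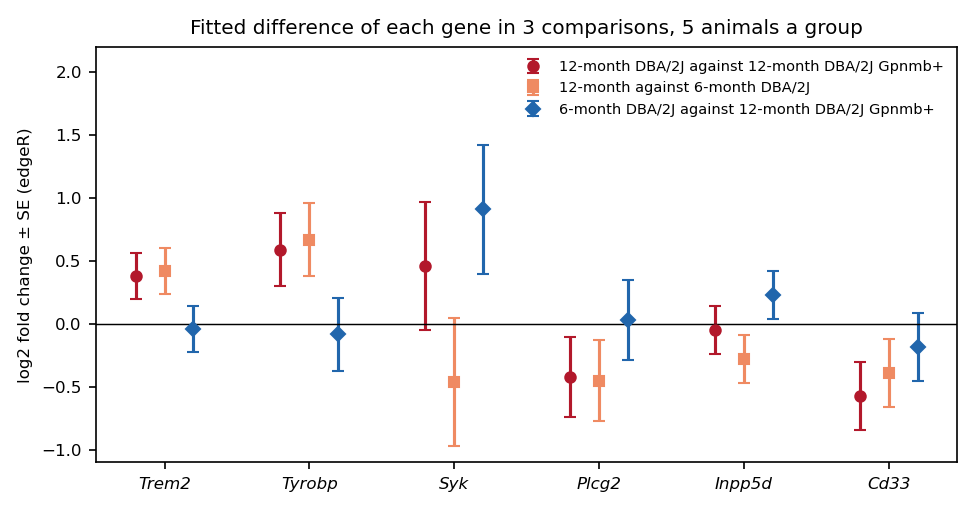
Fitted log2 fold change with its SE for the 6 genes in the 3 comparisons of groups of 5 animals, from 1 edgeR fit of 15 animals. Trem2 and Tyrobp were positive in both comparisons that have 12-month DBA/2J first, at 0.38 to 0.67, and near 0 between 6-month DBA/2J and Gpnmb+.

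Tyrobp and Trem2, with positive values in both comparisons that have 12-month DBA/2J first, have the shortest transcripts of the 6 genes. The effective length (median over retinas in the deposited tables) was 332.6 bases for Tyrobp, 912.5 for Trem2, 1840 for Inpp5d, 2233 for Cd33, 3852 for Syk and 4051 for Plcg2. In the comparison of 12-month DBA/2J with Gpnmb+, the 2905 genes tested with an effective length under 1000 bases had a median log2 fold change of 0.33, against 0.08 for the 4290 genes of 1000 to 2000 bases, -0.11 for the 4348 genes of 2000 to 4000 bases and -0.14 for the 1434 longer ones. Of the genes under 1000 bases, 66.4% were positive. Between 12-month and 6-month DBA/2J the medians were 0.42, 0.06, -0.19 and -0.26 in the same order of length. The Trem2 value of 0.42 there was at the median of its class, and its 0.38 against Gpnmb+ was close to the class median of 0.33. At 912.5 bases, Trem2 lies near the upper edge of that class. The next class had medians of 0.06 against 6 months and 0.08 against Gpnmb+, so a median for genes near its length is not given by these classes. Tyrobp, at 0.59 and 0.67, was above the medians of that class by less than its SE of 0.29. Syk, a longer transcript, was at 0.46 against Gpnmb+, above the median of -0.11 in its class. Against 6 months Syk was at -0.46, below the class median of -0.19. Cd33 in the same class was below both medians, at -0.57 and -0.39. Plcg2, at -0.42 and -0.45, and Inpp5d, at -0.05 and -0.28, were also below the medians of their classes. Both gaps of Plcg2 were less than its SE of 0.32. Against 6 months, the gaps of Syk and Cd33 were less than their SE of 0.51 and 0.27. Against Gpnmb+, that of Inpp5d was less than its SE of 0.19. The gaps of Syk and Cd33 against Gpnmb+ and of Inpp5d against 6 months exceeded their SE. This breakdown was chosen after the data were seen, and the part of transcript length in the differences was not tested.

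**Figure D4:**
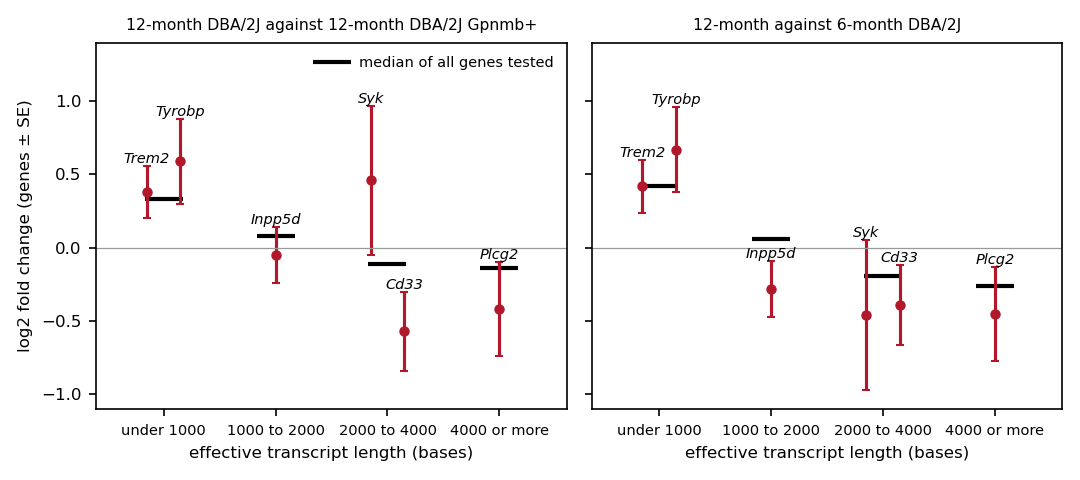
Log2 fold change of the 6 genes (points, ± SE) and the median over all genes tested (black bars) in 4 classes of effective transcript length, for 12-month DBA/2J against Gpnmb+ (left) and against 6-month DBA/2J (right). Both short transcripts, Trem2 and Tyrobp, sit in the class with the highest median, 0.33 on the left and 0.42 on the right.

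The grades of the 12-month DBA/2J retinas were then each set against Gpnmb+, with counts summed over eyes of the same animal and grade. The eyes of DBA/2J animals 1 and 5 differed in grade, so these animals gave a sum to each of their grades. The main fits of the grades, and of the slope below, took both sums of such an animal as independent. Their errors and p-values therefore do not measure spread between animals alone. No gene passed the adjustment by edgeR at any grade (0 of 15965 genes, 0% called). Without adjustment, 865 genes (5.42%) in mild, 1353 (8.47%) in moderate and 682 (4.27%) in severe retinas had a p under 0.05. Among them were Tyrobp, with the 4.76% that were higher in moderate retinas, and Cd33, with the 3.71% that were lower there, and none of the 6 in the other grades.

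Cd33 was lowest in moderate retinas. It had 75.4, 175.3 and 123.6 CPM in the moderate sums of DBA/2J animals 1, 2 and 5, against 177.7, 181.5, 399.6, 332.4 and 379.8 CPM in Gpnmb+ animals 1 to 5. The groups did not overlap, as for 1.14% of all genes in that direction. The moderate sums averaged 124.7 CPM, against 294.2 ± 107.4 CPM (SD, n = 5), which gave a log2 fold change of -1.24 ± 0.39 (SE; edgeR adjusted p = 0.579). DESeq2, which made 296 calls in this comparison, called it, with a log2 fold change of -1.26 and an adjusted p of 0.0204. Over the edgeR fits that leave out 1 animal each, the value was -1.56 to -0.97 and was not called. The mild sums of animals 4 and 5 had 163.1 and 291.4 CPM and the severe sums of animals 1 and 3 had 243 and 289.4 CPM. In both animals with eyes of different grade, the moderate eye was the lower one, with 75.4 CPM against 243 in the severe eye of animal 1 and 123.6 against 291.4 CPM in the mild eye of animal 5.

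Plcg2 was below every Gpnmb+ animal in the 3 moderate sums as well, with 76.3, 118.1 and 137.9 CPM against 157.1, 164.2, 146.2, 204.2 and 189.6 CPM in Gpnmb+ animals, as for 1.14% of all genes in that direction. This was a log2 fold change of -0.64 ± 0.42 (SE; edgeR adjusted p = 0.699). Most Plcg2 counts of Gpnmb+ animal 2, 787 against 88, came from its right eye, the smallest library. Its left eye had 23.5 CPM of the library total, below each moderate retina on that scale (53.8 to 145.1 CPM). The gap between the moderate sums and Gpnmb+ thus depended on that right eye. The severe sums of Plcg2 had 95.4 and 212.4 CPM and the mild sums 87.1 and 168.9 CPM, with 1 animal of each grade below the Gpnmb+ range.

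Tyrobp had 2161, 901.5 and 633 CPM in the moderate sums, against 948.7, 254.1, 488.5, 641.7 and 646.9 CPM in Gpnmb+ animals. Its log2 fold change of 1.05 ± 0.40 (SE; edgeR adjusted p = 0.579) was 0.38 without animal 1, both eyes of which that fit leaves out. The severe eye of the same animal had 500.1 CPM. The severe sums, 500.1 and 594.2 CPM, lay within the Gpnmb+ range, with a log2 fold change of -0.12 ± 0.47 (SE; edgeR adjusted p = 1), and the mild sums had 1409 and 538.7 CPM. Of the graded sums, the moderate eye of animal 1 had the highest Tyrobp and Syk and the lowest Cd33, Plcg2 and Inpp5d. That sum was a single retina with 4983359 counts. In moderate retinas the genes under 1000 bases had a median log2 fold change of 0.39 and those of 2000 to 4000 bases one of -0.23.

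Trem2 had 2214 and 1344 CPM in mild sums, 1997, 1607 and 860.7 CPM in moderate sums and 1600 and 1461 CPM in severe sums, against 988.5 to 1448 CPM in Gpnmb+ animals. Both severe sums were above every Gpnmb+ animal, as for 5.68% of all genes in that direction, with a log2 fold change of 0.33 ± 0.28 (SE; edgeR adjusted p = 1). The mild and moderate values were 0.55 ± 0.27 and 0.29 ± 0.24 (SE; edgeR adjusted p = 0.795 and 0.820). Without DBA/2J animal 4 the mild value was 0.11 and without animal 5 it was 0.82, and the moderate value was 0.03 without animal 1 and 0.54 without animal 5. The highest and the lowest graded sum were from different animals, 4 and 5, and both eyes of animal 5 were below the graded eyes of animal 1.

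Syk differed from Gpnmb+ by 0.38 ± 0.69 in mild, 0.77 ± 0.61 in moderate and 0.32 ± 0.69 in severe retinas, and Inpp5d by 0.06 ± 0.31, -0.13 ± 0.28 and -0.07 ± 0.32 (log2, SE; edgeR adjusted p between 0.798 and 1). Inpp5d in the moderate eye of animal 1 was the lowest of its graded sums, 265.4 CPM against 474.6 CPM in the severe eye.

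A slope over the grades within 12-month DBA/2J, scored 0 for mild, 1 for moderate and 2 for severe, was not detectable for any of the 6 genes. The slopes per grade were -0.11 ± 0.24 for Trem2, -0.42 ± 0.40 for Tyrobp, -0.04 ± 0.33 for Syk, 0.13 ± 0.29 for Plcg2, -0.07 ± 0.24 for Inpp5d and 0.11 ± 0.29 for Cd33 (log2, SE, 7 sums of 5 animals; edgeR adjusted p = 1 for each). Of 13394 genes, 0 (0% called) passed the adjustment and 247, or 1.84%, had an unadjusted p under 0.05. DESeq2 made 32 calls, none of them among the 6 genes.

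**Figure D5:**
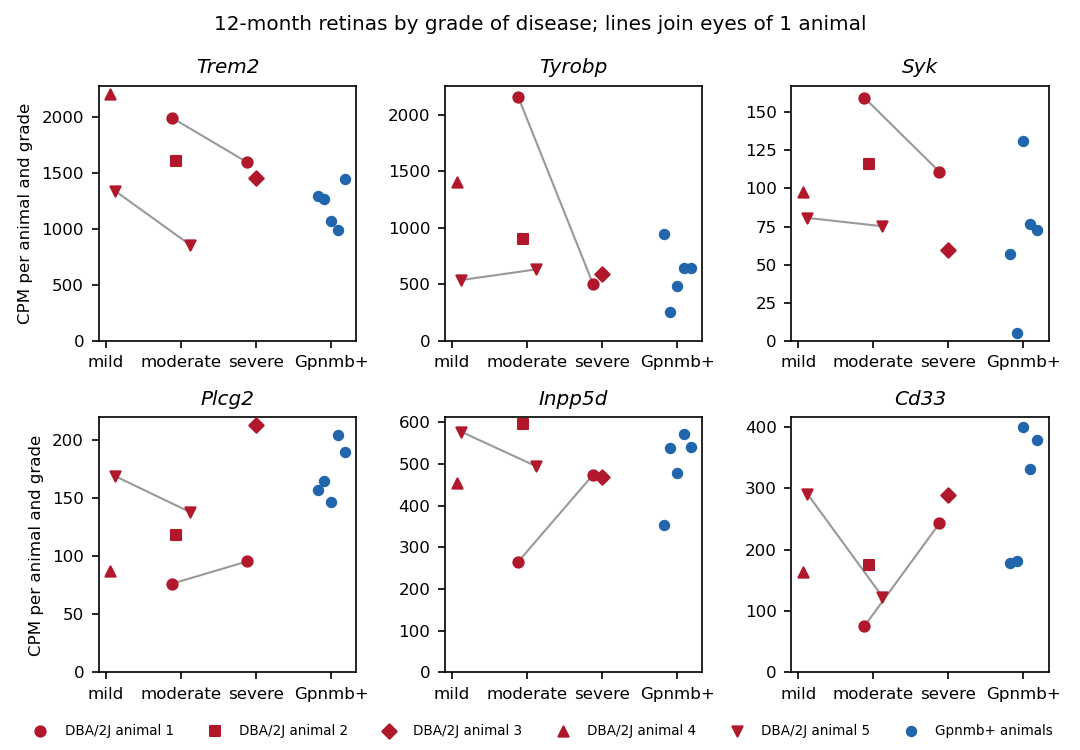
CPM per animal and grade in 12-month DBA/2J retinas (red) and per animal in Gpnmb+ (blue), with a panel for each gene; lines join the 2 eyes of animals 1 and 5, which differ in grade. The moderate sums of Cd33, 75.4 to 175.3 CPM, and of Plcg2, 76.3 to 137.9 CPM, lay below all Gpnmb+ animals. For Plcg2 in Gpnmb+ animal 2, most counts came from the right eye, the smallest library.

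The other genes of the pathway were read from lists of ligands, adapters, processing factors, kinases, brakes and genes of the mouse disease-associated state. In 12-month DBA/2J against Gpnmb+, none was called in any list, the median over all 12977 genes was 0.05, and counts below are at an unadjusted p under 0.05. At that level 2.75% of all genes were higher and 2.45% lower by edgeR, the shares to be read beside the counts of each list. Of the ligands, 5 of 10 genes passed the filter, with 1 higher and 0 lower and a median log2 fold change of 0.87. The higher one was Apoe, a lipoprotein that Trem2 binds, with 3474 to 23373 CPM in 12-month DBA/2J animals and 482.9 to 4900 CPM in Gpnmb+ animals, a log2 fold change of 2.48 ± 0.58 (SE; edgeR adjusted p = 0.337). Anxa5, which binds phosphatidylserine on dying cells, had 0.87 ± 0.71, Lgals3 1.69 ± 2.06 and Tgm2 -0.12 ± 0.49 (log2 fold change, SE).

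Of 21 genes listed as adapters or as receptors coupled to Tyrobp, 11 were tested, with 2 higher and 0 lower and a median of 0.21. Fcer1g, the Fc receptor gamma chain and, like Tyrobp, an adapter with a tyrosine motif, had 1173 ± 454.9 CPM in 12-month DBA/2J against 760.3 ± 216.3 CPM in Gpnmb+ (SD, n = 5 each), a log2 fold change of 0.62 ± 0.25 (SE; edgeR adjusted p = 0.747). Itgb2, the beta chain of complement receptor 3, had 507.9 ± 121.4 CPM in 12-month DBA/2J against 299.1 ± 140.1 CPM in Gpnmb+, a log2 fold change of 0.76 ± 0.29 (edgeR adjusted p = 0.675). Clec5a, a receptor that pairs with Tyrobp, had 0.69 ± 0.66 and Hcst 0.12 ± 1.22 (log2 fold change, SE). Treml1, which is not claimed here to couple to Tyrobp, had 2.62 ± 1.90 at low levels. It had 0 to 11.7 CPM in 12-month DBA/2J animals and 0 to 1.65 CPM in Gpnmb+ animals.

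Ms4a genes, which lie in a cluster linked to soluble TREM2 in humans, were listed with the proteases that shed the receptor. Of 13 such genes, 10 were tested, with 0 past the unadjusted level and a median of 0.31. Ms4a6c had 35.5 to 74.7 CPM in 12-month DBA/2J animals, 11.4 to 25.8 CPM in 6-month animals and 0 to 31.7 CPM in Gpnmb+ animals. The 12-month DBA/2J animals overlapped neither of the other groups, as for 0.832% of genes that were higher than Gpnmb+ and 1.43% that were higher than at 6 months. Its log2 fold change was 2.09 ± 1.11 against Gpnmb+ and 1.51 ± 1.09 against 6 months (SE; edgeR adjusted p = 0.999 and 1). Ms4a6d, Ms4a4c and Ms4a7 had 1.17 ± 0.74, 2.62 ± 1.49 and 2.87 ± 1.73 against Gpnmb+ (log2 fold change, SE), and near-identical copies in this family may have shared reads.

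Of 54 kinases and scaffolds downstream of the adapter, 51 were tested, with 0 higher and 2 lower and a median of -0.09. The pair was Rac1, a small GTPase of the cytoskeleton, with 62.3 ± 38.1 CPM in 12-month DBA/2J against 141.1 ± 90.6 CPM in Gpnmb+ (SD, n = 5 each; log2 fold change -1.18 ± 0.50, SE), and Nfatc2, a calcium-dependent transcription factor downstream of Plcg2, with -0.93 ± 0.43. Rac1 was also lower at 12 than at 6 months, at -2.09 ± 0.51 (SE; edgeR adjusted p = 0.436). Prkca and Grb2 had -1.63 ± 0.86 and -0.89 ± 0.57, Lyn, a Src family kinase that acts with Syk, -0.09 ± 0.30 and Btk 0.37 ± 0.73 (log2 fold change, SE).

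Of 30 inhibitory receptors, phosphatases and ubiquitin ligases in the files, 29 were tested, with 0 higher and 2 lower and a median of 0.09. Ubash3b, a phosphatase that acts on Syk, had 163.4 ± 47.9 CPM in 12-month DBA/2J against 245.3 ± 36.1 CPM in Gpnmb+ (SD, n = 5 each; log2 fold change -0.59 ± 0.24, SE; edgeR adjusted p = 0.794). Inppl1 (SHIP2), the paralog of Inpp5d, had 16.6 ± 5.40 CPM in 12-month DBA/2J against 37.1 ± 17.8 CPM in Gpnmb+ and a log2 fold change of -1.16 ± 0.51. Against 6-month DBA/2J, where its groups did not overlap (1.03% of genes in that direction), it had -1.62 ± 0.51 (SE; edgeR adjusted p = 0.750). Clec4a2 and Ptpn11 had 0.78 ± 0.41 and 1.47 ± 0.83, and Ptpn6 (SHP-1), the phosphatase recruited by inhibitory receptors, had 0.12 ± 0.20 (log2 fold change, SE).

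Of the pathway lists, that named for the Trem2-dependent mouse disease-associated state had the largest share past the unadjusted level. It had 8 higher and 1 lower of 22 tested, with a median of 0.82. Of all genes, 5.2% were past that level in either direction. The list contains Apoe, also the higher gene of the ligand list, and whether each gene on it needs Trem2 was not tested. Ctsz, a lysosomal protease, had 2052 to 3219 CPM in 12-month DBA/2J animals and 1069 to 1965 CPM in Gpnmb+ animals, without overlap (0.832% of genes in that direction), and a log2 fold change of 0.69 ± 0.17 (SE; edgeR adjusted p = 0.414). Ctsl and the tetraspanin Cd63 had 0.84 ± 0.24 and 1.12 ± 0.36 (edgeR adjusted p = 0.567 for both). In 12-month against 6-month DBA/2J the list had 5 higher and 1 lower and a median of 0.52, and in 6-month DBA/2J against Gpnmb+ 1 higher and 0 lower and a median of 0.07, beside medians of 0.01 and 0.03 over all genes, of which 3.65% and 3.77% were past that level in either direction. This list was chosen with results of these samples known, and its direction is not independent evidence.

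The genes with the profile most like each of the 6 over the 15 animals were sought among 5336 genes whose mean log2 CPM was 4 or more. The likeness is given as a Pearson r of log2 CPM and describes these animals only. For Trem2 they were the pseudogene Oaz1-ps (r = 0.877), the pseudogene Rpl9-ps4 (r = 0.857) and Cox7b (r = 0.849), a small subunit of cytochrome oxidase. For Tyrobp they were the pseudogene Rps16-ps2 (r = 0.960), Rps29 (r = 0.959), a ribosomal protein gene, and the processed pseudogene Rpl37rt (r = 0.951). Pseudogenes share reads with their parent genes, so these names are uncertain. For Syk they were Stk11ip (r = 0.958), Sec22b (r = 0.952) and Gm40309 (r = 0.948), with Gpnmb+ animal 2 far below the others in Syk. Plcg2 was most like Myo1f (r = 0.858), Anapc2 (r = 0.826) and Adam15 (r = 0.815). Inpp5d was most like Mrtfa (r = 0.846), Dennd4a (r = 0.845) and Zmiz1 (r = 0.830), and Cd33 most like Mylip (r = 0.782), Washc2 (r = 0.755) and Dennd4b (r = 0.754). Among the 6 genes themselves, Trem2 and Tyrobp each had an r of -0.61 with Plcg2. Their Spearman rho with it was -0.46 and -0.45, again in values that share a library and a scaling.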

How the data were processed

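RNA of sorted retinal microglia was sequenced with 1 library per retina. The authors deposited expected counts and TPM per gene for each retina, per the file headers. Tools listed in the submitters' processing notes, with no role, were DESeq2 1.30.1, R 4.0.3 and Salmon 1.4.0, and the build was mm10. Aligner, annotation release and strand setting: not given in the sources. Estimated counts depend on how shared reads were divided, and TPM on the estimated effective lengths. A deposited FPKM table with 24 columns of per-sample values was not used.

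Of 47729 gene IDs, 47224 matched a symbol in the GRCm38 annotation, by which the 6 genes were found. Expected counts were rounded and summed per animal, or per animal and grade (17 sums). Tests used edgeR 4.0.16, run in R 4.3.3 (quasi-likelihood F test, TMM scaling, filterByExpr with minimum count 10 and total 15), in 1 fit of 15 animals for the 3 group comparisons, with two-sided p-values adjusted over all genes by Benjamini and Hochberg and a threshold of 0.05. The test was run on simulated counts for the first comparison only, not for the grades or the slope. The planted changes were larger than the fitted differences of the 6 genes, so the run does not cover differences of their size. CPM are counts per 1000000 of the TMM-scaled total in animals and of the library total in retinas and for marker sums. TPM were averaged over the eyes of an animal, taken as log2(TPM + 1) and tested with limma 3.58.1, a choice made after seeing the data. No library was treated as a duplicate: in the 91 within-group pairs of retinas, chi-square over its degrees of freedom was at least 81.8, with identical values for 0.432% of genes or fewer. Animal numbers only name the animals.

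The genes and lists were chosen with earlier results of these data known. Named outside the 6 genes were, for each list, up to 4 genes with the smallest unadjusted p against Gpnmb+, plus Fcer1g, Hcst, Ptpn6, Lyn and Btk, and the 3 genes most like each of the 6. The lists' entries Trem5, Lilrb4 and Lilrb4a were not analysed here. Start regions came from RefSeq. Alternatives were DESeq2 1.42.0 as the tool; RLE as the scaling; no filter, or 50 counts required in 5 sums; single retinas as replicates, with and without animal as a random effect (limma); a fit of the compared groups only; removal of 2 shallow retinas (below 20% of the median total) or of 5 retinas with fewer than 10000 genes; 1 retina per animal, that with more counts; a block for the animal number; and removal of 1 animal at a time.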

Additional observations from a re-analysis of the deposited data

Results flagged for a closer look

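Cd33 in 12-month DBA/2J animal 3 stood apart from the other animals of its group, with 288.1 CPM against 162.3 to 197.1 CPM. The gap to the next animal was 0.724 of the group's range, above Dixon's critical value of 0.71 for 5 values. Both retinas of this animal were graded severe. It was 1 flag among 18 groups of values checked, and chance flags about 1 in 20.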

How the results depend on the processing

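Over 774 alternative values of the 6 genes, 715 kept their sign and side of the threshold, 58 reversed in sign and 1 became called (Cd33 in moderate retinas under DESeq2, -1.26). No log2 fold change that reversed was called before or after. Counts of called genes, 0 in every comparison, depended on the tool. DESeq2 called 108 genes in 12-month DBA/2J against Gpnmb+, 62 against 6-month DBA/2J and 57 at 6 months against Gpnmb+, and the random animal effect 8, 5 and 40; without a filter the second had 2. For mild, moderate and severe retinas, DESeq2 called 599, 296 and 280 genes, no filter 31, 33 and 10, and the random effect 3, 13 and 32. For the slope over grades DESeq2 called 32 and no filter 6. Each retina as a replicate gave 1 in moderate retinas. Called genes when each animal was left out numbered 0 to 1 in the first comparison (1 without DBA/2J animal 5), 0 to 2 in mild retinas (2 without DBA/2J animal 4) and 0 to 4 in moderate retinas (4 without DBA/2J animal 5, 2 without Gpnmb+ animal 5 and 1 without DBA/2J animal 2). The cause was not tested.

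The animal number as a replicate block gave 4 called genes in moderate and 1 in severe retinas and otherwise 0; in 0 of 15 pairs of same-numbered animals did the deviations correlate above 0.1. Under the replicate block Plcg2 was -0.07 in 6-month DBA/2J against Gpnmb+, Inpp5d -0.07 in mild and 0.15 in severe retinas and 0.29 for the slope, and Cd33 0.11 in severe retinas.

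Other reversals, all log2 fold changes, were as follows. In 12-month DBA/2J against Gpnmb+, Syk was -0.15 without retinas under 10000 genes, Plcg2 0.07 with the larger retina, and Inpp5d 0.13 per retina, 0.05 with the random effect and 0.65 on TPM. In 12-month against 6-month DBA/2J, Inpp5d was 0.14 on TPM. In 6-month DBA/2J against Gpnmb+, Trem2 was 0.02 per retina, 0.12 without retinas under 10000 genes, 0.08 with the larger retina and 0.10 on TPM; Tyrobp was 0.17 on TPM; Plcg2 was -0.03 under DESeq2, -0.03 under RLE, -0.07 per retina and -0.11 on TPM; Cd33 was 0.03 with the random effect and 0.15 on TPM. In mild retinas Syk was -0.25 without retinas under 10000 genes, and Inpp5d -0.01 under DESeq2, -0.01 under RLE, -0.03 without retinas under 20% of the median total and -0.05 without those under 10000 genes. In moderate retinas Trem2 was -0.04 with the random effect, and Inpp5d 0.12 per retina and 0.06 with the random effect. In severe retinas Syk was -0.33 without retinas under 10000 genes, Plcg2 0.14 with the random effect and 0.10 without retinas under 20% of the median total, Inpp5d 0.11 per retina, and Cd33 0.09 per retina and 0.08 with the random effect.

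Leaving out each animal gave both signs for Inpp5d in 12-month DBA/2J against Gpnmb+ (-0.16 to 0.03); for Trem2 (-0.10 to 0.02), Tyrobp (-0.27 to 0.14) and Plcg2 (-0.15 to 0.21) in 6-month DBA/2J against Gpnmb+; for Tyrobp (-0.17 to 1.21) and Inpp5d (-0.18 to 0.19) in mild retinas; for Inpp5d (-0.38 to 0.14) in moderate retinas; for Tyrobp (-0.32 to 0.09), Syk (-0.19 to 0.69) and Plcg2 (-0.88 to 0.30) in severe retinas; and for Trem2 (-0.27 to 0.08), Syk (-0.22 to 0.20), Plcg2 (-0.22 to 0.44), Inpp5d (-0.11 to 0.04) and Cd33 (-0.08 to 0.43) in the slope. The slope without retinas under 10000 genes was not run, since it would leave out none. Shares of the summed TPM were the same, to rounding, when computed from counts per length. With 5 animals a group, 2 or 3 sums a grade and 977873 to 20081047 counts per retina, edgeR called none of the differences of the 6 genes given here.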
